A study of Eriocheir sinensis with 2 samples.

Results

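The unigenes described here carry annotations for sterol supply, lipoprotein uptake and intracellular lipid transport in the Y-organ of the Chinese mitten crab, Eriocheir sinensis. A unigene is an assembled transcript or transcript fragment, named after its best hit in the nr protein database. Members were found by words in that name (sterol, Niemann-Pick, lipoprotein, vitellogenin, apolipo, lipophorin, fatty acid-binding, lipid transfer, oxysterol, scavenger receptor, saposin, StAR-related and acyl-CoA-binding), with hits to ciliates left out, although none of the hits found was to a ciliate. The rule used no measured value and gave 60 of the 47966 unigenes with at least 1 read, of which 13314 had an nr annotation. C1 was the Y-organ 48 h after removal of the eyestalk, and C0 was the Y-organ of crabs left untreated and sampled at 48 h. Each group started with 30 crabs of 5 to 6 g kept in fresh water at 18 to 20 °C, and each gave 1 library, so no value below has a replicate. The control crabs had intact eyestalks, and the labels name no sham operation, so loss of the eyestalk and the wound cannot be told apart.

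The Y-organ is the gland in which crustaceans make ecdysteroids, the molting hormones, from cholesterol. Crustaceans do not build the sterol ring themselves. They take sterols from food, receive them through the hemolymph on lipoproteins, and convert other dietary sterols to cholesterol. Peptides from the eyestalk, among them the molt-inhibiting hormone, restrain the gland, which is why removal of the eyestalk is used to activate it. Proteins that could handle cholesterol on its way to the steroidogenic enzymes include lipoprotein and scavenger receptors at the cell surface, Niemann-Pick proteins in the lysosome, and soluble carriers in the cytosol. How far each crab unigene does what its best hit does in another animal was not measured.

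The deposited table held 3.75 megareads (M reads) on unigenes in C1 and 4.15 megareads in C0. A unigene counted as a DEU (differentially expressed unigene) when its adjusted p was 0.001 or less and its log2 ratio of C1 over C0 lay beyond 1 in either direction. The p is from the exact two-sided binomial test of its reads, with Benjamini-Hochberg adjustment over all 47966 unigenes. It compares the 2 libraries and not the 2 treatments, and the 95% Wilson intervals given with log2 ratios cover counting error only. Levels are RPKM (reads per kilobase of unigene and per unit of library size), which allows unigenes of different length to be set side by side. In a whole-organ library, fewer cells of a type and less RNA per cell cannot be told apart. Among all DEUs, 57.7% were higher in C1, and this share was 40.9% with edgeR TMM scaling and 43.4% with median-ratio scaling, which shifted every log2 ratio by −0.17 and −0.15.

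Of the 60 unigenes, 5 (8.33%) were DEUs, against 4.03% of all unigenes tested. The 4 that rose in C1 (6.67% of members, against 2.32% of all) included a fatty acid binding protein and an acyl-CoA-binding protein. The 1 that fell (1.67% of members, against 1.70% of all) was a sterol regulatory element-binding protein 1. Read number limits such calls, since no DEU in the whole table had fewer than 16 reads and 26 members had fewer than that. Among the 16 members with 50 reads or more over C1 and C0, 5 (31.3%) were DEUs, against 15.1% of all 11398 unigenes with that many reads and 15.7% of the 4075 of these that carried an nr annotation. By direction, 4 of the 16 (25%) rose, against 8.66% of all such unigenes and 6.63% of the annotated ones, and 1 (6.25%) fell, against 6.40% and 9.08%.

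The list as a whole did not move to one side. Over the 40 members with at least 10 reads the median log2 ratio was 0.09, with 22 above 0 and 18 below (−0.08415 with TMM scaling), while all 30436 unigenes with at least 10 reads had a median of 0.15 and the annotated ones had −0.07. The summed reads were 4739 in C1 and 3611 in C0, a log2 ratio of 0.54 (interval 0.48 to 0.60). Without the 5 DEUs the remaining 55 members had 2429 reads in C1 and 2628 in C0, a log2 ratio of 0.03 (−0.05 to 0.11), so the difference in the sum lay in those 5.

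Most members were expressed at low levels. Reads were found for 58 members in C1 and 57 in C0. Their median level was 4.95 RPKM in C1 and 4.75 RPKM in C0, while all unigenes with reads had 7.21 RPKM in C1 and 6.57 RPKM in C0. A level of at least 100 RPKM was reached by 4 members in C1 and by 2 in C0. The fatty acid binding protein and saposin alone held 54.8% of all member reads in C1 and 49.9% in C0.

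**Figure D1:**
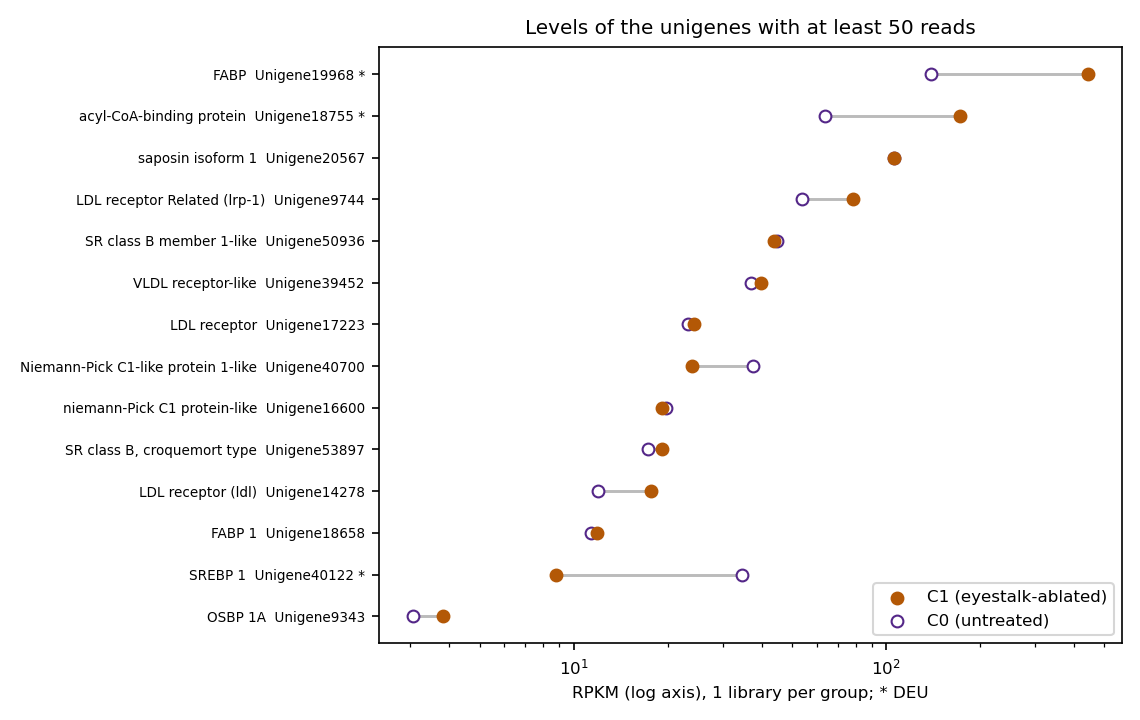
Level in RPKM (log axis) of 14 unigenes with at least 50 reads, with 1 filled point for the C1 library and 1 open point for the C0 library in each line, and an asterisk for a DEU. The fatty acid binding protein lies at 444 RPKM in C1 and 140 RPKM in C0, the points of saposin coincide at 106 RPKM, and sterol regulatory element-binding protein 1 is the one DEU with its C1 point to the left.

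The sterol regulatory element-binding proteins (SREBPs) are membrane-bound transcription factors. In mammals they are released by proteolysis and switch on lipid synthesis genes. Unigene40122 (1273 bp, best hit in zebrafish) had 42 reads in C1 and 183 in C0, and its reads covered 76.2% of its length in C1 and 98.7% in C0. At 8.80 RPKM in C1 and 34.6 RPKM in C0 it fell by 1.96 on the log2 scale, 3.94-fold lower in C1 (interval −2.46 to −1.50, adjusted p = 2.39e-17, exact binomial test). A second SREBP 1 unigene, Unigene11927, had 8 reads in C1 and 17 in C0, with a log2 ratio of −0.90 and an interval (−2.12 to 0.24) that includes 0 and overlaps that of the first. SREBP cleavage-activating protein, the escort that in mammals brings SREBP to the protease when sterol is low, had 1 read in C1 and 7 in C0 in Unigene5128 (log2 interval −5.30 to −0.02, adjusted p = 0.31, exact binomial test). Both SREBP unigenes and the cleavage-activating protein thus had fewer reads in C1, 51 in all against 207 in C0, and 1 of the 3 passed the test. A phosphatidylcholine-sterol acyltransferase, which esterifies cholesterol on lipoproteins in vertebrates, had 3 reads in C1 and 4 in C0.

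The group of small carriers, most of them named after proteins that bind a single lipid molecule in the cytosol, had 8 unigenes and 2 DEUs. Of all unigenes tested, 4.03% were DEUs, and 3 of the 8 had at least 50 reads. Fatty acid binding proteins (FABPs) carry fatty acids and, in some cases, other lipids. Unigene19968 (849 bp), whose best hit is an FABP of Eriocheir sinensis itself, had 1414 reads in C1 and 492 in C0. It was 444 RPKM in C1 and 140 RPKM in C0, 3.18-fold higher in C1 (log2 1.67, interval 1.52 to 1.82, adjusted p = 6.07e-122, exact binomial test). It ranked 231 by RPKM among the 44503 unigenes with reads in C1, and 655 among the 44833 in C0, and it had the highest level of the 60 members in both libraries.

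Another FABP of the same species stood at nearly equal levels in the libraries. Unigene18658, named fatty acid-binding protein 1, had 34 reads in C1 and 36 in C0, or 11.9 RPKM in C1 and 11.4 RPKM in C0, with a log2 ratio of 0.07. Its interval (−0.61 to 0.73) and that of Unigene19968 do not overlap. The 2 remaining FABP unigenes, with best hits in crayfish and shrimp, had 7 and 1 reads in C1, against 8 and 5 in C0. The 4 together had 1456 reads in C1 and 541 in C0, and nearly all of these came from the 1 abundant form.

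Acyl-CoA-binding protein carries activated fatty acids between the enzymes that use them, and in mammals a form of it is known to act on steroid synthesis at the mitochondrion. Unigene18755 (505 bp, best hit in the shrimp Fenneropenaeus chinensis) had 327 reads in C1 and 134 in C0. It was 173 RPKM in C1 and 63.9 RPKM in C0, 2.70-fold higher in C1 (log2 1.43, interval 1.14 to 1.72, adjusted p = 2.27e-22, exact binomial test). Its rank by RPKM was 535 in C1 and 1752 in C0.

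The other unigenes grouped with the small carriers were rare. Sterol carrier protein 2, which exchanges sterols and fatty acyl chains between membranes and peroxisomes, had 13 reads in C1 and 10 in C0 in Unigene52075 (log2 0.51, interval −0.63 to 1.68). In mammals a StAR protein moves cholesterol into the mitochondrion, but the only member with a StAR-related name was similar to StAR-related lipid transfer protein 13. That unigene, Unigene41378, had 15 reads in C1 and 12 in C0 (log2 0.46, interval −0.60 to 1.54). A glycolipid transfer protein had 3 reads in C1 and 2 in C0. None of these 3 passed the test, and their depth leaves a 2-fold difference within the interval. A non-specific lipid-transfer protein, the vertebrate name of sterol carrier protein 2, missed the word rule through its hyphen and was looked up after the values were known. Unigene8110 (1318 bp, best hit in rabbit) had 269 reads in C1 and 235 in C0, or 54.4 RPKM in C1 and 42.9 RPKM in C0, and was no DEU (log2 0.34, interval 0.09 to 0.59, adjusted p = 0.0677, exact binomial test).

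Proteins of the lysosome, 4 unigenes, included no DEU, against 4.03% of all unigenes tested, and 3 of the 4 had at least 50 reads. Saposins help lysosomal enzymes to break down sphingolipids. Saposin isoform 1 (Unigene20567, 2981 bp, best hit in Penaeus monodon) had 1183 reads in C1 and 1311 in C0, and its level was 106 RPKM in both libraries. With a log2 ratio of −0.0014 and an interval of −0.11 to 0.11, it was the most closely bounded member. Niemann-Pick C1 (NPC1) exports cholesterol from the lysosome, and NPC1-like 1 takes up sterol at the surface of the mammalian gut.

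The unigene named after NPC1-like 1, Unigene40700, had 97 reads in C1 and 168 in C0, or 23.97 RPKM in C1 and 37.5 RPKM in C0. Its log2 ratio of −0.64 (interval −1.005 to −0.29) missed both thresholds (adjusted p = 0.00576, exact binomial test). With TMM and median-ratio scaling its adjusted p passed (1.44e-04 and 3.14e-04, exact binomial test), but its log2 ratios of −0.81 and −0.79 did not. Unigene16600, similar to NPC1 itself, had 60 reads in C1 and 68 in C0, or 19.2 RPKM in C1 and 19.7 RPKM in C0 (log2 −0.03, interval −0.53 to 0.46). Another NPC1 fragment, Unigene33984, had 7 reads in C1 and 8 in C0. The 3 Niemann-Pick unigenes together had 164 reads in C1 and 244 in C0, a log2 ratio of −0.43 (−0.71 to −0.14).

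Receptors of the low-density lipoprotein (LDL) receptor family formed the largest group, with 27 unigenes and no DEU, against 4.03% of all unigenes tested. Only 4 of the 27 had at least 50 reads. These membrane proteins bind lipoproteins and many other ligands and bring them into the cell by endocytosis. Of the 15 with at least 10 reads, 10 had a log2 ratio above 0 and 5 below, with a median of 0.15. This is the value that equal reads in both libraries give, and also the median of all unigenes with that many reads. The annotated ones had a median of −0.07. The group had 726 reads in C1 and 665 in C0, a log2 ratio of sums of 0.27 (0.12 to 0.43). Unigene9744 alone held 281 of these reads in C1 and 213 in C0, so the sum is not a level of the whole family.

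The most abundant receptor was Unigene9744, whose best hit is lrp-1, an LDL receptor-related protein of Caenorhabditis elegans that is required for molting in that worm. It had 281 reads in C1 and 213 in C0, or 78.5 RPKM in C1 and 53.8 RPKM in C0. Its adjusted p of 5.82e-04 (exact binomial test) passed its threshold, but its log2 ratio of 0.55 (interval 0.29 to 0.80) lay below 1, so it was no DEU. Its hit was weak (E = 6.97e-10).

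The next receptors by read number stood at nearly equal levels. A very low-density lipoprotein receptor-like unigene, Unigene39452, had 118 reads in C1 and 122 in C0, or 39.7 RPKM in C1 and 37.1 RPKM in C0 (log2 0.10, interval −0.27 to 0.46). Unigene17223, an LDL receptor with its best hit in the body louse, had 111 reads in C1 and 117 in C0, or 24.3 RPKM in C1 and 23.2 RPKM in C0 (log2 0.07, interval −0.30 to 0.44). Unigene14278, with its best hit in Aedes aegypti, had 40 reads in C1 and 30 in C0 (log2 0.56, interval −0.11 to 1.24). For the first pair the interval leaves no room for a difference of 2-fold in either direction.

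Among the rarer receptors with at least 10 reads the widest difference was in Unigene6280, similar to LDL receptor-related protein 1, with 12 reads in C1 and 1 in C0 (log2 interval 1.15 to 6.32, adjusted p = 0.0136, exact binomial test). It shares its best-hit protein with Unigene14362 (4 reads in C1 and 0 in C0, with a log2 interval that starts at 0.21) and with Unigene11943 (1 read in each library). The 3 fragments had 17 reads in C1 and 2 in C0, with an interval of 1.28 to 5.19 on the log2 scale. They were picked out here after their values were seen, and none was a DEU. In the opposite direction, Unigene54441 had 10 reads in C1 and 27 in C0 (log2 −1.24, interval −2.31 to −0.26, adjusted p = 0.0959, exact binomial test). The longest member of all, Unigene25872 (5830 bp), also an LDL receptor, had 2 reads in C1 and 3 in C0.

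Scavenger receptors of class B take up lipids from lipoproteins, and the croquemort type belongs to the CD36 family, known in the fruit fly for the uptake of dead cells. None of the 5 scavenger receptor unigenes was a DEU, against 4.03% of all unigenes tested, and 2 of the 5 had at least 50 reads. The class B member 1-like Unigene50936 had 126 reads in C1 and 143 in C0, or 43.7 RPKM in C1 and 44.8 RPKM in C0 (log2 −0.04, interval −0.38 to 0.31). Both croquemort unigenes share 1 best-hit protein of the shrimp Marsupenaeus japonicus. Unigene53897 had 36 reads in each library (log2 0.15, interval −0.51 to 0.81), and Unigene35515 had 9 in C1 and 19 in C0 (log2 −0.89, interval −2.05 to 0.18). The 4 class B unigenes together had 180 reads in C1 and 210 in C0, a log2 ratio of −0.08 (−0.36 to 0.21).

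Oxysterol-binding proteins (OSBPs) and their relatives move sterols and phospholipids where membranes touch. The 10 unigenes of this family were all rare, with 90 reads in C1 and 93 in C0 in all (log2 0.10, interval −0.32 to 0.52). None was a DEU, against 4.03% of all unigenes tested, and only 1 of the 10 had at least 50 reads. The one with most reads was OSBP 1A, Unigene9343 (2594 bp), with 37 in C1 and 33 in C0 (log2 0.31, interval −0.36 to 0.98). Its reads covered 10.9% of its length in C1 and 14.4% in C0, the lowest of the 16 members with at least 50 reads, whose median was 97.2% in both libraries. OSBP-related proteins 6 and 10 followed, with 11 and 10 reads in C1, against 13 and 10 in C0. OSBP-related protein 8, Unigene43816, was found in C0 alone, with 0 reads in C1 and 8 in C0 and a log2 interval that ends at −0.91 (adjusted p = 0.0674, exact binomial test). A count of 0 in C1 allows a share of up to 8.00e-05% of its unigene reads.

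**Figure D2:**
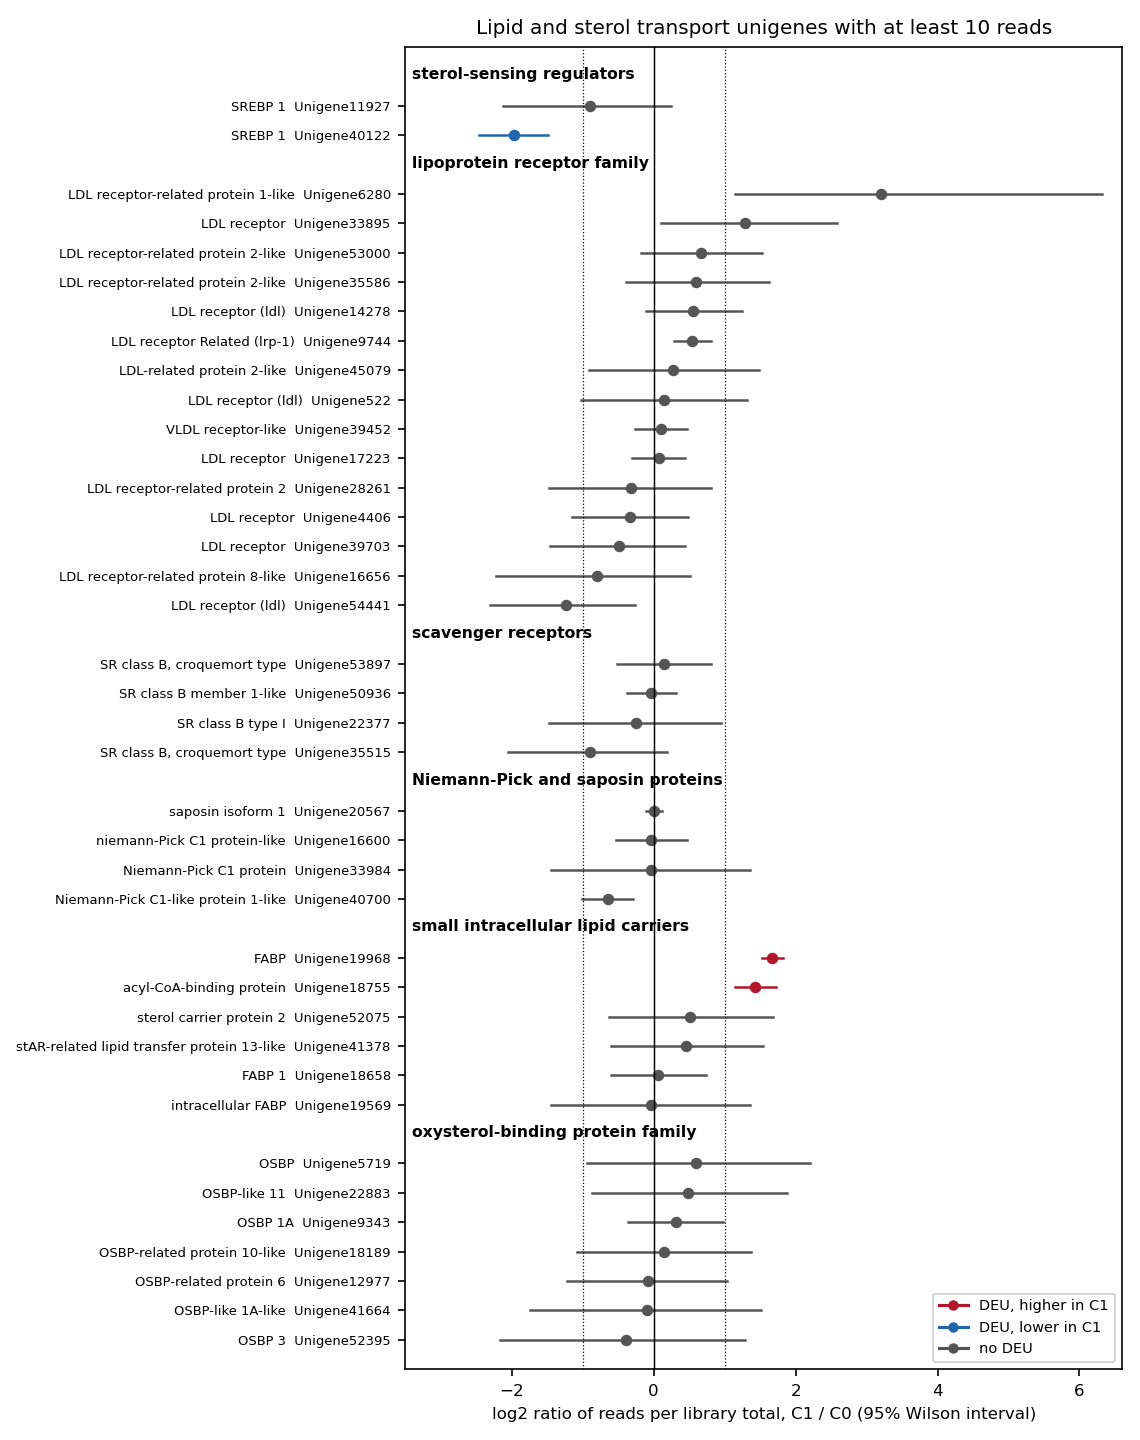
Log2 ratio of C1 over C0 for 38 unigenes with at least 10 reads, ordered by role. Points are ratios with 0.5 read added to each library, bars are 95% Wilson intervals, which cover counting error only, and dotted lines mark −1 and 1. The 2 red points are the DEUs among the small carriers, the 1 blue point is SREBP 1, and most grey bars cross 0.

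Of the 55 members that were no DEU, 47 had an interval that includes 0, 4 lay above it and 4 below. The interval lay within −1 and 1 for 9 of the 11 members with at least 50 reads that were not called, so for these a 2-fold difference between the libraries is outside the counting error. It did so for none of the 44 members with fewer reads, so for these the counting error does not exclude a difference of that size.

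What the members share beyond their names is mostly the state of the assembly. Their lengths ran from 201 to 5830 bp with a median of 503 bp, against 316 bp for all unigenes. The 60 unigenes hit 50 different proteins of 28 species, so some share a best hit, and whether these are fragments of 1 transcript was not tested. For 2 the best hit was in Eriocheir sinensis, for 8 in any decapod crustacean, for 11 in the body louse and for 10 in a vertebrate. A gene ontology term was given to 25, of which 2 had lipid transport and 5 a steroid or cholesterol metabolic process. The words vitellogenin, apolipo and lipophorin, the names of the main arthropod lipoproteins, matched no annotation, although the clotting protein Unigene20426 belongs to the vitellogenin family of large lipid transfer proteins. This abundant hemolymph protein had 33779 reads in C1 and 6745 in C0, or 1668 RPKM in C1 and 301 RPKM in C0 (log2 2.47, interval 2.43 to 2.51).

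The pathway that cholesterol feeds was read only in part, from a list of 7 ecdysteroid unigenes and from a pair that its words missed. The list includes 3 named after ecdysteroid receptors, and the words neverland, spook and shroud matched no annotation. The paper names further differentially expressed unigenes of this pathway, lower for the first step from cholesterol and higher for the last step to ecdysone. Their values are not given here. Of the 7, 1 was a DEU (of all unigenes tested, 4.03% were), and the 6 with at least 10 reads had a median log2 ratio of 0.35. That DEU was dib, the ecdysteroid 22-hydroxylase (Unigene1867), with 654 reads in C1 and 323 in C0, or 179 RPKM in C1 and 79.8 RPKM in C0 (log2 1.16, interval 0.97 to 1.36, adjusted p = 1.82e-32, exact binomial test). The unigene with by far the most reads, Unigene19254, named an ecdysone biosynthesis protein, had 259118 reads in C1 and 277318 in C0. Its log2 ratio was 0.05 (0.04 to 0.06), and it was no DEU. The paper, in contrast, lists Unigene19254 as up-regulated, for the step after the first, as it does Unigene1867. The Cytochrome P450 315a1 unigene, Unigene47941, the 2-hydroxylase of ecdysteroids in insects, had 1390 reads in C1 and 907 in C0 and a log2 ratio of 0.76 (0.64 to 0.88), and was no DEU. Cytochrome P450 302a1 is the insect name of the dib enzyme itself, and the unigene with that name, Unigene6855, had 69 reads in C1 and 58 in C0 and was no DEU (log2 0.40, interval −0.10 to 0.90). Its interval does not overlap that of Unigene1867, so the 2 unigenes named after this enzyme differed in their ratio.

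Enzymes of the mevalonate pathway, which in arthropods leads to isoprenoids such as methyl farnesoate rather than to sterols, gave 5 unigenes and no DEU. Of all unigenes tested, 4.03% were DEUs, and only 1 of the 5 had at least 50 reads. Farnesyl pyrophosphate synthase, Unigene48316, had 83 reads in C1 and 57 in C0 (log2 0.68, interval 0.20 to 1.17, adjusted p = 0.0462, exact binomial test). Geranylgeranyl pyrophosphate synthase, Unigene52863, had 22 reads in C1 and 16 in C0 (log2 0.59, interval −0.31 to 1.52). HMG-CoA reductase had 3 reads in C1 and 14 in C0. No unigene was named after squalene or lanosterol, intermediates in animals that make their own sterols.

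Of all unigenes tested, 2.32% were DEUs higher in C1 and 1.70% lower. Lipases and esterases, 44 unigenes, held 1 DEU in each direction, with a median log2 ratio of −0.41 over the 22 with at least 10 reads. Both DEUs hit the same protein, a carboxylesterase similar to juvenile hormone esterase in the shrimp Pandalopsis japonica. Unigene50863 had 71 reads in C1 and 9 in C0 (log2 3.06, interval 2.15 to 4.11, adjusted p = 8.18e-13, exact binomial test), and Unigene8180 had 25 in C1 and 76 in C0 (log2 −1.44, interval −2.10 to −0.81, adjusted p = 7.33e-05, exact binomial test). The 2 unigenes of the list with most reads were no DEUs. The bile salt-activated lipase-like Unigene45112 had 131 reads in C1 and 103 in C0 (log2 0.49, interval 0.12 to 0.87), and Unigene7966, a further hit to the same carboxylesterase, had 53 in C1 and 68 in C0 (log2 −0.21, interval −0.73 to 0.30). Lysosomal acid lipase, which frees cholesterol from its esters in endocytosed lipoprotein, had 13 reads in C1 and 32 in C0 in Unigene41281 (log2 −1.12, interval −2.07 to −0.24, adjusted p = 0.11, exact binomial test). Names of the ABC transporter family, which includes membrane pumps that export lipids, gave 20 unigenes with 1 DEU, lower in C1. That one, Unigene46120 of the ABCB/MDR subfamily, had 100 reads in C1 and 231 in C0 (log2 −1.06, interval −1.40 to −0.72, adjusted p = 8.47e-09, exact binomial test). The one with most reads, Unigene8162, similar to ABC subfamily F member 2, had 1908 reads in C1 and 1374 in C0 and was no DEU (log2 0.62, interval 0.52 to 0.72). It held most of the 2228 reads of the list in C1 and of the 1968 in C0, and a pump function was not tested.

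**Figure D3:**
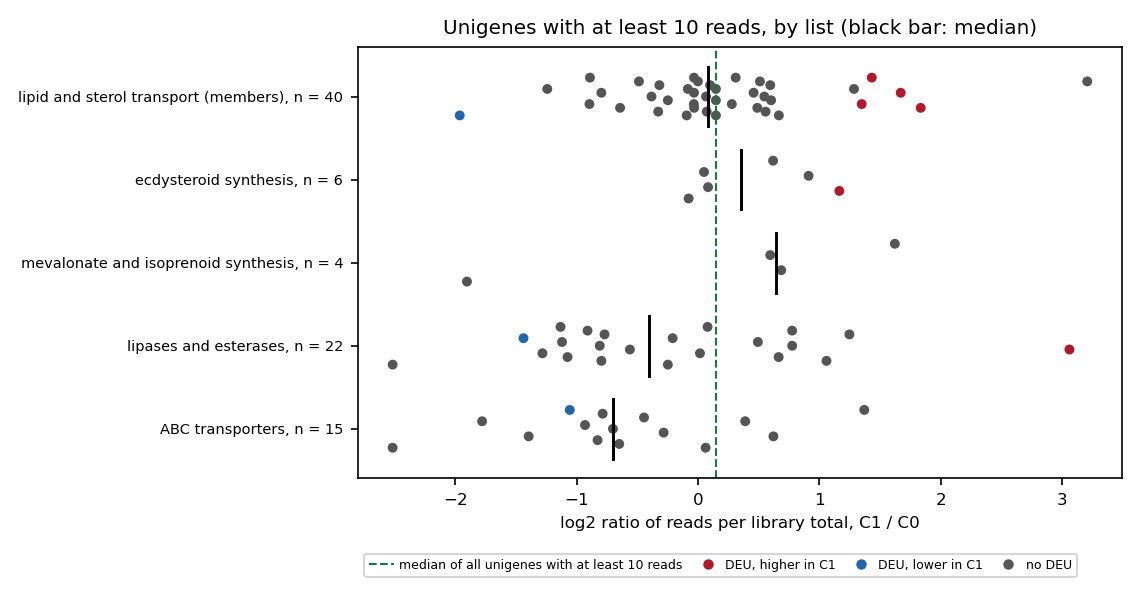
Log2 ratio of C1 over C0 for the unigenes with at least 10 reads in the lipid and sterol transport list and in 4 further pathway lists, with 1 point per unigene, a black bar for each list's median and a dashed line for the median of all such unigenes, 0.15. The medians are 0.09 for lipid and sterol transport, 0.35 for ecdysteroid synthesis, 0.64 for mevalonate and isoprenoid synthesis, −0.41 for lipases and esterases and −0.70 for ABC transporters.

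Lipid carriers and receptors are also made in other tissues, so marker lists of those tissues were read beside the members. The hepatopancreas, the main lipid store of the crab and rich in FABP, was read from 30 unigenes of digestive enzymes and hemocyanin. None was a DEU, against 4.03% of all unigenes tested, and only 3 of the 30 had at least 50 reads. Their summed level was 169 RPKM in both libraries, with 755 reads in C1 and 839 in C0. Its most read unigenes were a trypsin-like serine protease, Unigene18865 (404 reads in C1 and 425 in C0), and a chitinase, Unigene18954 (116 in C1 and 166 in C0). Unigene18865 alone stood at 84.1 RPKM in C1 and 79.9 RPKM in C0, a large part of the sum. The parts of the list differed, with 69 reads in C1 and 40 in C0 for hemocyanin, and 134 and 197 for chitinase. The word amylase also took in 1 tubulin polyglutamylase. The 8 unigenes of the ovary list had 10 reads in C1 and 13 in C0 in all, and the germ cell markers vasa and nanos matched no annotation. The word thrombospondin gave 4 of the 8, with 8 reads in C1 and 5 in C0, and it also took in a metalloproteinase with thrombospondin motifs.

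Some markers of hemocytes, muscle and cuticle were DEUs, in both directions within each list, and those of muscle were mostly lower in C1. Of all unigenes tested, 2.32% were DEUs higher in C1 and 1.70% lower. Among unigenes with at least 50 reads these shares were 8.66% and 6.40%. That depth was reached by 10 hemocyte, 23 muscle and 5 cuticle unigenes. Of 16 hemocyte unigenes 1 rose and 2 fell, and 10 of the 15 with at least 10 reads had a log2 ratio below 0, with a median of −0.46. Their summed level was nevertheless 5953 RPKM in C1 and 3614 RPKM in C0, with the clotting protein at 1668 RPKM in C1 and 301 RPKM in C0. The anti-lipopolysaccharide factor Unigene20839, no DEU, stood at 2514 RPKM in C1 and 1826 RPKM in C0. The clotting protein, the 1 that rose, is the hemolymph protein described above, so the sum is not a level of hemocytes alone. It held 33779 of the 50335 reads of the list in C1 and 6745 of the 20859 in C0. The hemocyte DEUs that fell were a prophenoloxidase-activating enzyme, Unigene40262 (log2 −1.38), and peroxinectin, Unigene26027 (log2 −1.50). Of 35 muscle unigenes 1 rose and 6 fell, and 19 of the 28 with at least 10 reads lay below 0, with a median of −0.58 and a summed level of 2883 RPKM in C1 and 3831 RPKM in C0. The muscle DEUs that fell were troponin C (Unigene8189, Unigene26010 and Unigene45981), a myosin light chain (Unigene19268) and myosin heavy chains (Unigene45982 and Unigene25800), while another myosin heavy chain, Unigene45546, rose. The 2 muscle unigenes with most reads, arginine kinase (Unigene19602, log2 0.53) and a myosin light chain (Unigene20034, log2 −0.43), were no DEUs. Of 21 cuticle unigenes 1 rose and 1 fell, and the 9 with at least 10 reads had a median of 0.002363, with 5 above 0 and 4 below. The summed cuticle level of 1644 RPKM in C1 and 848 RPKM in C0 was set mainly by the DEU that rose, arthrodial cuticle protein Unigene20409, at 1487 RPKM in C1 and 670 RPKM in C0. A cuticle proprotein, Unigene39705, fell (log2 −3.26), and the next by read number, Unigene19279, was no DEU (log2 −0.69). The part of hemocyte, muscle or epidermal RNA in the differences of the 5 DEUs was not tested.

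With 1 library per group the spread between libraries of the same treatment is unknown, so the 5 DEUs were tested again with an assumed one. The labels do not say how many crabs went into each library. At a biological coefficient of variation of 0.1 (edgeR exact test) 4 stayed DEUs, among them the FABP, acyl-CoA-binding protein and SREBP 1. At 0.2 none did. The adjusted p at 0.2 was 0.00467 for SREBP 1, 0.00846 for the FABP and 0.0593 for acyl-CoA-binding protein (edgeR exact test).

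**Figure D4:**
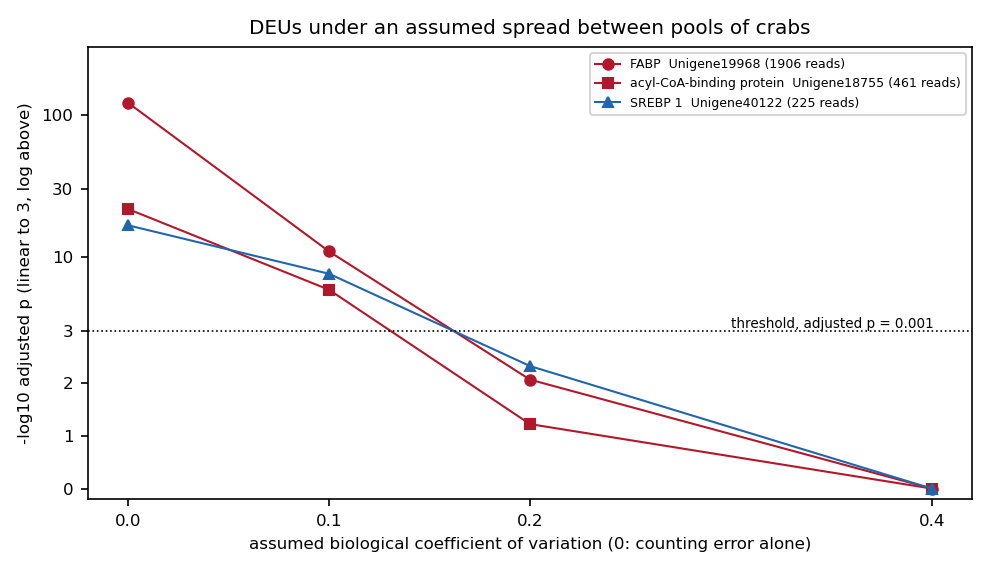
Adjusted p of 3 DEUs (the FABP, acyl-CoA-binding protein and SREBP 1) as −log10 (linear up to 3, log above) against the assumed biological coefficient of variation, where 0 is the exact binomial test with counting error alone and 0.1, 0.2 and 0.4 are edgeR exact tests. At 0.1 all 3 points lie above the dotted threshold of 0.001, and at 0.2 and 0.4 all 3 lie below it.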

How the data were processed

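Y-organ mRNA was sequenced on an Illumina HiSeq in 1 library per group, and the authors aligned the clean reads with SOAPaligner/soap2 (version not given in the sources used here) to the unigenes of a transcriptome assembled earlier. The deposited table gave, for each unigene and library, the count of reads, RPKM (listed as 0.001 for 0 reads, read here as 0) and the percent of its length covered by reads, per the file headers, with nr and gene ontology annotation. The authors' log2 ratio, p-value and FDR columns were not used, and 0 value columns lacked a sample.

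Counts were tested with the exact two-sided binomial test against the C1 share of unigene reads (47.5%), with Benjamini-Hochberg adjustment over 47966 unigenes and 0.5 read added for ratios. The test was checked on simulated counts that held counting error alone, so the check does not cover a spread between crabs. No biological spread can be estimated. Calculations used Python 3.11.15, scipy 1.17.1, pandas 2.3.3 and, for TMM factors and the exact test with an assumed spread, R 4.3.3 with edgeR 4.0.16. Members were named if they were DEUs, had at least 50 reads or were among the 3 with most reads in their role, and in other lists, apart from the ovary list with its few reads, if they were DEUs or among the 2 with most reads. Others were named after their values were seen. The members and lists were chosen with earlier results of these data known. No unigene identifier occurs in the RefSeq gene table, and no sequence was used. The values of 2 members that were DEUs, higher in C1, are not reported here, although they are in the counts and sums.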

Additional observations from a re-analysis of the deposited data

How the results depend on the processing

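The 4 higher and 1 lower DEUs were found again with TMM, median-ratio and clean-read scaling, Fisher's exact test, filters at 10 or 50 reads, and 1 or 5 reads added. The log2 ratios ranged from 1.50 to 1.67 (FABP), 1.26 to 1.43 (acyl-CoA-binding protein) and −2.13 to −1.85 (SREBP 1) over these settings. The number of higher members was 3 at an assumed coefficient of variation of 0.1, and both the higher and the lower number were 0 at 0.2, at 0.4 and at a log2 threshold of 2. At a threshold of 0 it was 5 higher, with Unigene9744 added. The median log2 ratio of the list was −0.08415 with TMM and −0.06176 with median-ratio scaling. Members near 0 that were no DEU changed sign: Unigene39452 to −0.07029 and −0.04789, Unigene17223 to −0.10 and −0.07562, Unigene18658 to −0.10 and −0.0813 with TMM and median ratio, Unigene18189 and Unigene53897 to −0.02239 with TMM, and Unigene17223 and Unigene18658 to −0.00093 and −0.0066 with clean reads.

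No paired analysis was possible because each group has 1 library. For the same reason no library was left out. Depth limits the members with fewer than 50 reads.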
